A study of Mus musculus with 2 samples.

Results

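The 10 genes of the interleukin-1 and interleukin-18 systems were chosen by name, as the ligands Il1a, Il1b and Il18, the antagonist Il1rn, the receptor chains Il1r1, Il1rap, Il18r1 and Il18rap, the decoy receptor Il1r2 and the binding protein Il18bp. They were 10 of the 24785 genes counted. Living CD45+ cells were sorted from lungs of C57BL/6N wild-type mice, age and sex matched adults. The BLM group had received bleomycin into the trachea and was taken on day 15, and the naive group was untreated. Each group was 1 library, in which cells of 3 mice were pooled in equal numbers and sequenced as single cells.

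Interleukin-1α and interleukin-1β are agonists of the same receptor, made of IL-1R1, which binds the ligand, and IL-1RAcP (Il1rap), which is needed for the signal. The receptor antagonist (Il1rn) occupies IL-1R1 without a signal, and the decoy receptor IL-1R2 binds the agonists but lacks the intracellular signalling domain. Interleukin-1β and interleukin-18 are made as precursors that caspase-1 cuts in the inflammasome, interleukin-18 then signals through IL-18R1 with IL-18RAP, and IL-18BP captures it in solution. In the lung, alveolar macrophages and recruited myeloid cells are known sources of these ligands, and bleomycin injury is a common mouse model of inflammation followed by fibrosis.

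The BLM library held 4714 barcodes and 22490782 unique molecular identifiers (UMIs, each standing for 1 captured RNA molecule), and the naive library held 4062 barcodes and 18019004 UMIs. Of these, 4526 BLM and 3925 naive cells had at least 200 genes and at most 15% mitochondrial UMIs, with medians of 2437 and 2759 UMIs per cell. Cells were classed by panels of marker genes that held none of the 10 genes, and 637 BLM cells (14.1%) and 318 naive cells (8.10%) met no gate. A level is given as UMIs of a gene per 1000000 UMIs of the summed class (CPM), with an exact Poisson 95% interval. The kit captures poly(A) tails and counts molecules, so levels carry no gene length. Whether capture was equal between genes was not tested, so levels of different genes are compared as UMIs only. With 1 library per group no test between BLM and naive was possible. All intervals cover counting error only, and condition, pool, library and run cannot be told apart. The libraries shared 22 barcode numbers. CD45 itself (Ptprc) had a UMI in 90.4% of BLM and 93.4% of naive cells.

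Of the larger classes, neutrophils numbered 1008 in the BLM library and 457 in the naive library, alveolar macrophages 385 and 676, macrophages with C1q genes 415 and 84, classical monocytes 198 and 226, and nonclassical monocytes 123 and 181. Conventional dendritic cells numbered 56 and 91 of type 1 (cDC1) and 56 and 73 of type 2 (cDC2). There were 585 and 785 B cells, 778 and 645 T cells and 123 and 251 natural killer (NK) cells. These 10 classes had at least 50 cells in both libraries and were compared. Migratory dendritic cells (76 and 13), group 2 innate lymphoid cells (ILC2, 29 and 71) and stromal or endothelial cells (37 and 19) are given by level only. The marker panels of the 10 compared classes were each at their highest in their own class, and a cell's gate was that of its graph cluster in 7257 of 7496 cells with both names (96.8%). The same panels set the gates and named the clusters, so neither is an independent check.

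In GRCm38, 6 of the 10 genes lay in 2 groups. Il1r2 (chr1:40074079-40125231), Il1r1 (chr1:40225080-40317257), Il18r1 (chr1:40465552-40500854) and Il18rap (chr1:40515362-40551705) lay in this order on the plus strand. Il1a (chr2:129299610-129309972) and Il1b (chr2:129364570-129371139) lay near each other on the minus strand. Other genes that lie between members were not looked up. Elsewhere lay Il1rn (chr2:24336853-24351494, plus), Il1rap (chr16:26581704-26730117, plus), Il18 (chr9:50554827-50581840, plus) and Il18bp (chr7:102014885-102018690, minus). On the other strand, Il1b overlapped Il1bos, Il1a overlapped Gm14023, Il1r2 overlapped Gm16894 and Il1rap overlapped Gm20319. Il18 overlapped Bco2 and Tex12 there, and Il18bp overlapped Numa1. On the same strand, Il1r1 overlapped Gm38070 and Il1r2 overlapped Gm37347, which strand cannot tell apart. Whether counting used strand is not given in the sources used here, so reads of the pairs on opposite strands may not be told apart either.

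The promoters of the 3 ligands are shown because in alveolar macrophages Il1a and Il1b were higher and Il18 lower in the BLM library. Each is the 250 bases before the RefSeq transcription start in GRCm38.p6, 5′ to 3′ on the gene's own strand. Capitals mark matches of the searched motifs.
Il1a (chr2:129309973-129310222, minus strand): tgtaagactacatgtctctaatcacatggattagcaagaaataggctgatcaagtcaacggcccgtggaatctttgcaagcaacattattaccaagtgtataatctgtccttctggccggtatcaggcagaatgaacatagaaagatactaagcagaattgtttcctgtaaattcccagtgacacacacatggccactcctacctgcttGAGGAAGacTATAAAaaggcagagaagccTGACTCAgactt
Il1b (chr2:129371140-129371389, minus strand): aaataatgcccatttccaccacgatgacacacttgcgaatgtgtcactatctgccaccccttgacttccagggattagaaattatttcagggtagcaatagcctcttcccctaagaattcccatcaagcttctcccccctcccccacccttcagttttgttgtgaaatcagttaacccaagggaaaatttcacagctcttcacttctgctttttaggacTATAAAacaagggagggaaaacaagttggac
Il18 (chr9:50554450-50554699, plus strand): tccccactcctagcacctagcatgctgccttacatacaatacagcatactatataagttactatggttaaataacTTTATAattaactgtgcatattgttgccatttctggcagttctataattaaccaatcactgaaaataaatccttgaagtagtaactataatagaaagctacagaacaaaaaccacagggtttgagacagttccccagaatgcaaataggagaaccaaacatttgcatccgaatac
The motifs, searched on both strands, were a TATA box (TATAAA), NF-kB, AP-1 (TGANTCA), C/EBP (TTGCNNAA) and PU.1 (GAGGAAG). Il1a held PU.1 from base -41, TATA from base -32 and AP-1 from base -12, with position -1 just before the start and no overlap between the matches. Il1b held TATA from base -31, and Il18 held TATA on the other strand from base -175. Among 32851 mouse promoter windows of 300 bases (250 before to 50 after the start), TATA was in 13.6%, NF-kB in 1.63%, AP-1 in 7.81%, C/EBP in 10.8% and PU.1 in 13.6%. All 10 genes had a window, 15 in all with alternative starts. NF-kB was matched in windows of Il1rn only, at base -51 of the start whose window is chr2:24345121-24345420. In the other windows, PU.1 was matched 2 times in Il18rap (first at base -94) and once in Il18r1 (base -7), and C/EBP once in Il1r1 (base -133) and once in Il18bp (base -49). Il1rn also held AP-1 (base -141) in 1 window and TATA 14 bases after the start in another. A match is a description of letters, and the absence of one says only that these letters were not in the window.

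**Figure D1:**
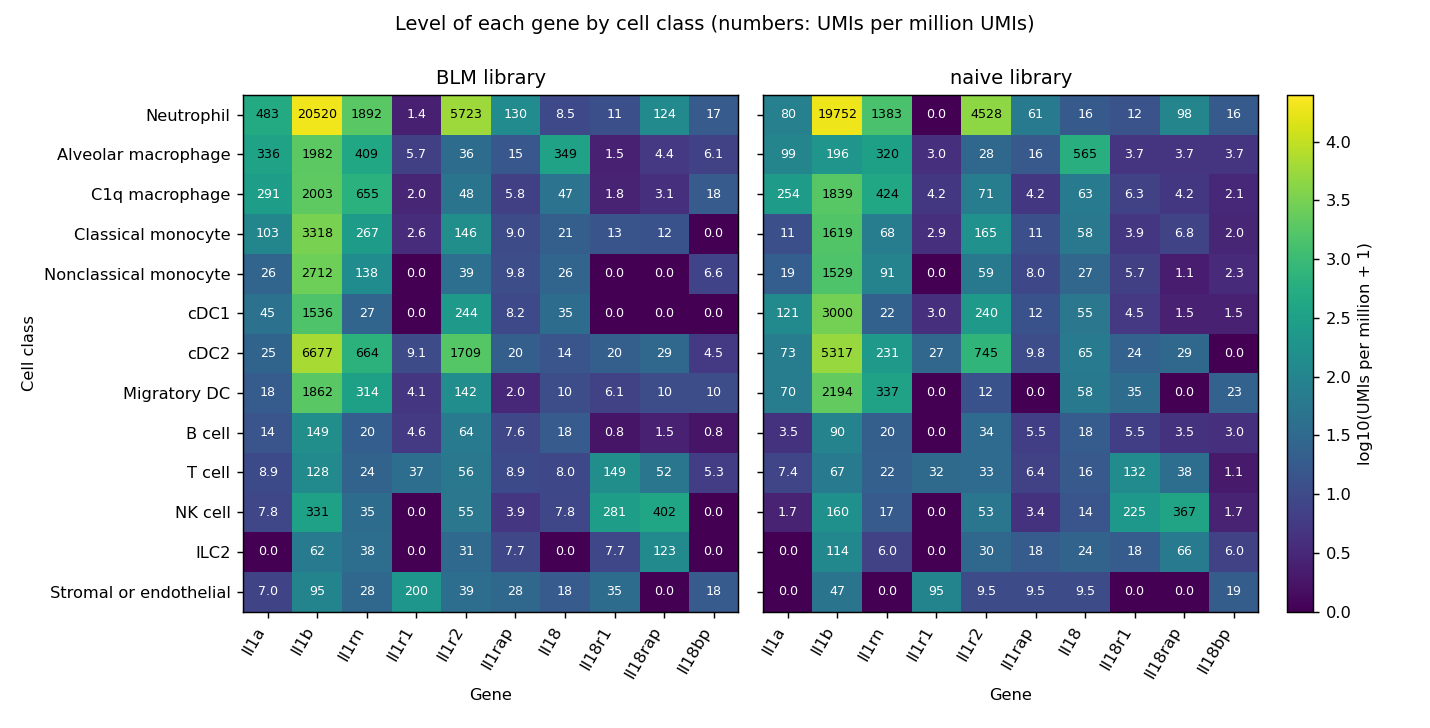
Level of each of the 10 genes (columns) in each cell class (rows) of the BLM library (left) and the naive library (right), with the CPM printed in each field and the colour on a log10(CPM + 1) scale. Il1b was highest in neutrophils at about the same level in both libraries, and differed most between the libraries in alveolar macrophages (1982 against 196 CPM).

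The 10 genes were spread unevenly over the classes. Neutrophils led for Il1b, Il1rn, Il1r2 and Il1rap in both libraries, and for Il1a in BLM. Alveolar macrophages led for Il18 in both. NK cells had the highest level of both IL-18 receptor chains among the 10 compared classes, followed by T cells for Il18r1 and by neutrophils for Il18rap. Il1r1 was highest in stromal or endothelial cells and in γδ T cells. Of the 100 possible pairs of gene and class, 67 had at least 20 UMIs over both libraries.

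A pair was called past 2-fold when it had at least 20 UMIs and a log2 ratio of BLM over naive of 1 or more in size. That held for 17 of the 67 pairs (25.4%), 12 higher and 5 lower in BLM. The 17 include Il1a in B cells, Il18r1 in alveolar macrophages, Il1b in NK cells and Il18bp in C1q macrophages. Those pairs lay at background, rested on few UMIs or depended on single cells, as given below. Among all genes of the same class, the share past the same rule was 10.7% in neutrophils, 15.0% in alveolar macrophages, 23.4% in C1q macrophages, 8.57% in classical monocytes and 9.47% in nonclassical monocytes. It was 14.1% in cDC1, 14.5% in cDC2, 6.14% in B cells, 6.71% in T cells and 9.52% in NK cells. Of the 10 genes, 4 of 5 ranked were past 2-fold in classical monocytes (Il1a, Il1b and Il1rn higher, Il18 lower) and 4 of 7 in cDC2 (Il1rn and Il1r2 higher, Il1a and Il18 lower). In alveolar macrophages it was 3 of 10 (Il1a and Il1b higher, Il18r1 lower), and in neutrophils 2 of 9 (Il1a and Il1rap higher). One gene passed in C1q macrophages (Il18bp higher, 1 of 7), cDC1 (Il1a lower, 1 of 5), B cells (Il1a higher, 1 of 6) and NK cells (Il1b higher, 1 of 4). None passed among 5 in nonclassical monocytes or 9 in T cells. A count of 1 gene in a class is not read as a result about the members. The median log2 ratio of all ranked genes was -0.19 in alveolar macrophages, -0.10 in C1q macrophages, -0.11 in B cells and -0.11 in NK cells. With each class's median subtracted, all 17 pairs were still past 2-fold.

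**Figure D2:**
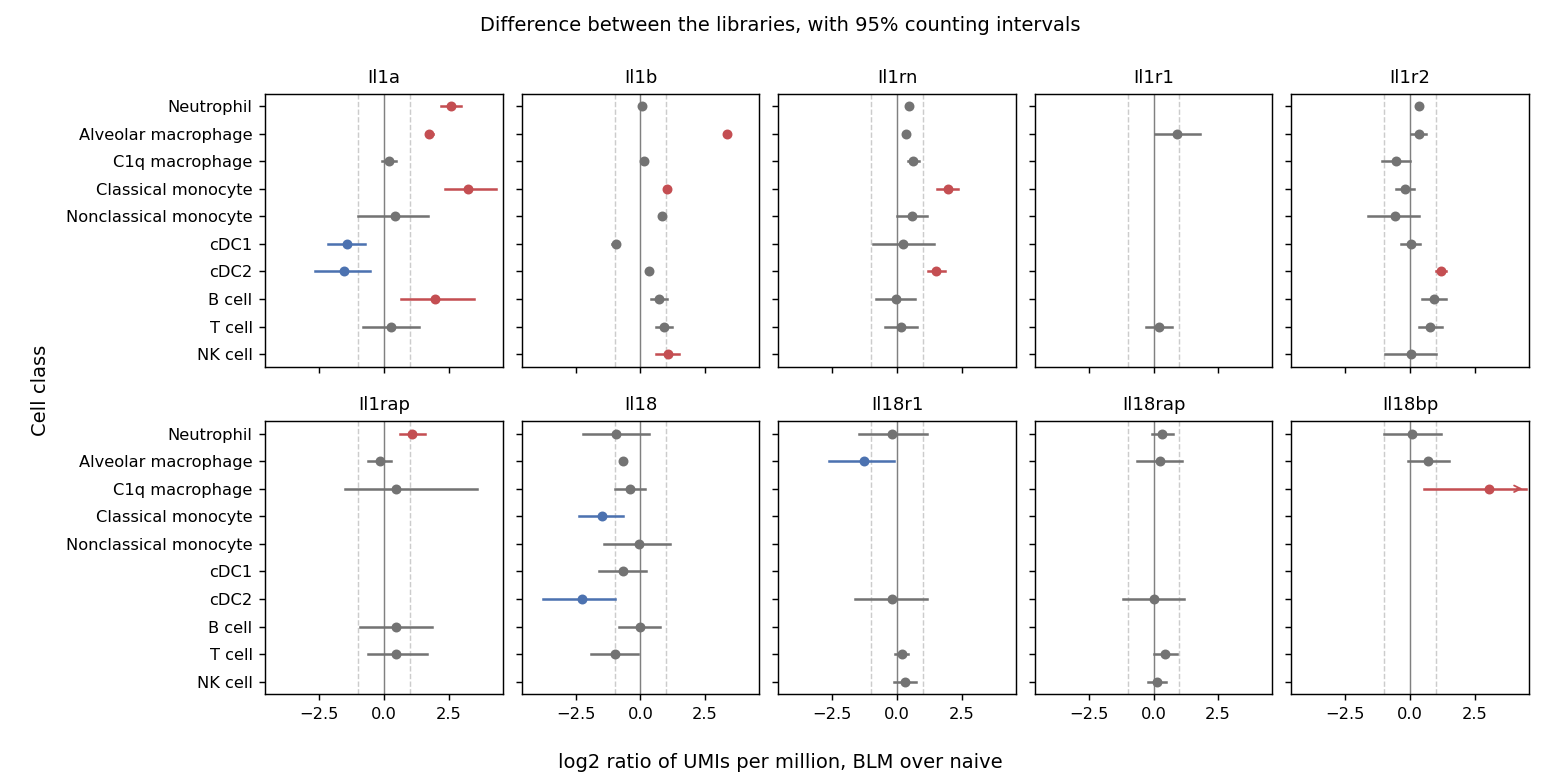
Log2 ratio of BLM over naive for the 10 genes in the 10 compared classes, as points with exact 95% intervals for counting error (arrows where an interval runs past the axis) and dashed lines at 2-fold. Il1b in alveolar macrophages stood at 3.34. Over the 9 classes in which it was ranked, Il18 ran from -2.25 in cDC2 to -0.03 in B cells, which give its background. It was at -0.06 in nonclassical monocytes, and the median of all ranked genes in B cells was -0.11.

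Il1b, the inducible agonist, was at 20520 CPM in BLM neutrophils (28897 UMIs) and 19752 CPM in naive neutrophils (14492 UMIs). At least 1 UMI was in 99.3% of BLM and 99.8% of naive neutrophils. The log2 ratio was 0.06 (95% interval 0.03 to 0.08), so the neutrophil level was almost the same in both libraries although BLM held more neutrophils. In alveolar macrophages the level was 1982 CPM in BLM (10375 UMIs, interval 1944 to 2020) and 196 CPM in naive (1366 UMIs, 186 to 207). The intervals did not overlap, and the ratio was 10.1-fold (log2 3.34, 3.25 to 3.42). Of these macrophages, 91.4% had a UMI in BLM and 59.5% in naive, or 57.8% and 13.3% after each cell was thinned to 1000 UMIs, since median depths were 13491 and 9876 UMIs.

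Single alveolar macrophages spread widely. Per 10000 UMIs, the median cell held 10.1 Il1b UMIs in BLM and 0.87 in naive, and the 90th percentile was 55.3 and 3.48. The tenth of cells with most Il1b held 41.1% of its UMIs in BLM and 62.0% in naive. Most BLM cells of the class were thus above the naive 90th percentile while the lowest BLM cells held none. Graph clusters, built without the 10 genes, put 328 BLM cells of the class (85.2%) in a cluster apart from that of 637 naive cells (94.2%). In the cluster that both libraries shared, with 49 BLM and 32 naive cells, Il1b was at 915 and 102 CPM, Il1a at 217 and 54.5 CPM, and Il18 at 314 and 508 CPM.

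**Figure D3:**
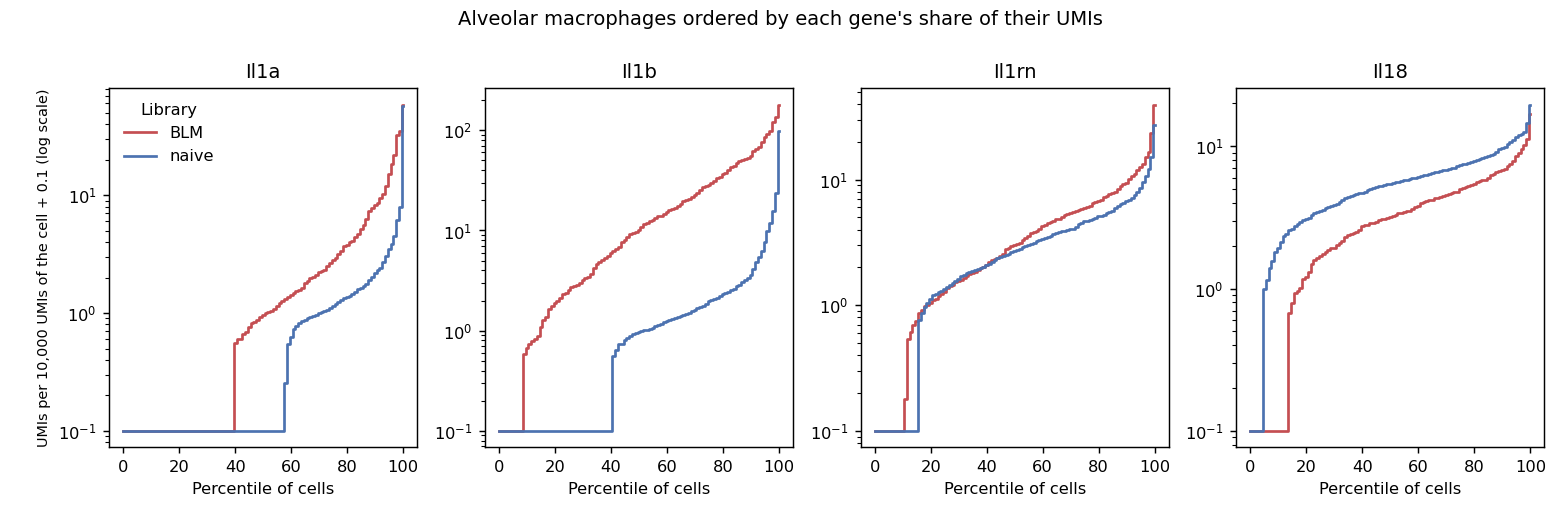
Distribution over single alveolar macrophages (385 BLM, 676 naive) of UMIs of Il1a, Il1b, Il1rn and Il18 per 10000 UMIs of the cell (log10 axis, 0.1 added), by percentile of cells. The BLM curve was above the naive curve for Il1b (medians 10.1 and 0.87) and below it for Il18 (3.08 and 5.35).

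Other panels were measured in the same alveolar macrophages. The 10 alveolar markers summed to 18730 CPM in BLM and 19100 CPM in naive. Cells entered the class by these same markers, so a like sum does not show that single markers or cell identity were alike. Other lists moved with Il1b, with all genes of each detected in both libraries. The 5 Spp1 macrophage genes (Spp1, Arg1, Gpnmb, Trem2, Fabp5) were at 7549 and 1404 CPM, the 8 C1q markers at 446 and 136 CPM, and the 6 classical monocyte markers at 294 and 147 CPM. Their part in the Il1b difference was not tested. Under the 11 other settings tried, among them 6 or more alveolar markers, no cycling cells, no likely doublets and clusters as classes, the log2 ratio was between 3.20 and 3.53. Free neutrophil RNA was followed through S100a8 and S100a9. Per UMI of this pair, Il1b was at 0.757 in BLM and 0.702 in naive neutrophils, at 1.51 and 0.731 in B cells and at 12.6 and 1.86 in alveolar macrophages. The part of free RNA in the Il1b difference was not tested.

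Il1b in classical monocytes was at 3318 CPM in BLM (2575 UMIs) and 1619 CPM in naive (1657 UMIs), a log2 ratio of 1.04 (0.95 to 1.13). This was just past 2-fold, and it went under with clusters as classes (0.72), a mean over cells (0.90) or a wider gate margin (0.92). In nonclassical monocytes the levels were 2712 and 1529 CPM (log2 0.83), in cDC2 6677 and 5317 CPM (0.33) and in C1q macrophages 2003 and 1839 CPM (0.12). In cDC1 the level was lower in BLM, at 1536 against 3000 CPM (log2 -0.97). C1q macrophages were not the same mixture in both libraries, because at least 3 of the 5 Spp1 macrophage genes were detected in 335 of 415 BLM but 1 of 84 naive cells. Among the others, 80 BLM and 83 naive cells, Il1b was at 4074 and 1923 CPM (log2 1.08, 0.97 to 1.20), and the 335 BLM cells were at 1760 CPM. S100a8 and S100a9 summed to 149 CPM in these 80 BLM and 590 CPM in these 83 naive cells. In all C1q macrophages they summed to 146 and 560 CPM. The part of free neutrophil RNA in the Il1b levels of C1q macrophages was not tested. NK cells held 85 and 93 Il1b UMIs (331 and 160 CPM, log2 1.05), but a single cell held 38.8% of them in BLM and 29.0% in naive. Without the highest cell of each library the NK log2 ratio was 0.84, without likely doublets 0.68, with clusters as classes 0.55 and with the wider gate margin 2.10. B cells, which should lack Il1b, had a UMI in 21.9% of BLM and 15.3% of naive cells at median depths of 1716 and 1974 UMIs. T cells (128 and 67.4 CPM, 23.5% and 14.3% of cells) were close to the B cell levels of 149 and 90.3 CPM, which is read as background.

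Il1a, the agonist that acts without cleavage by caspase-1, was at 483 CPM in BLM neutrophils (680 UMIs) and 80.4 CPM in naive neutrophils (59 UMIs). The ratio was 6.00-fold (log2 2.59, 2.20 to 3.0), and 21.9% against 7.88% of the cells had a UMI. The neutrophils of both libraries fell mainly in 2 clusters, in different proportions. The first, with 62.3% of BLM and 35.7% of naive neutrophils, had Il1a at 679 and 150 CPM, and the second (35.1% and 59.1%) at 204 and 45.9 CPM. Il1a was thus higher in BLM within each cluster, while Il1b differed little within either (21356 and 23019 CPM, then 21470 and 18557 CPM).

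In alveolar macrophages Il1a was at 336 CPM in BLM (1758 UMIs) and 99.4 CPM in naive (692 UMIs), 3.38-fold higher in BLM (log2 1.76, 1.63 to 1.88). C1q macrophages held 291 and 254 CPM, and their intervals overlapped (log2 0.19, -0.07 to 0.48). Among C1q macrophages with few Spp1 genes the levels were 383 and 221 CPM (log2 0.79, 0.43 to 1.16). Classical monocytes held 103 CPM in BLM (80 UMIs in 19 cells) and 10.7 CPM in naive (11 UMIs in 11 cells), a ratio of 9.59-fold (log2 3.26, 2.35 to 4.32). One BLM cell carried 33 of the 80 UMIs. Without the highest cell the log2 ratio was 2.64, and it was 1.14 with the wider gate margin. Of the 198 BLM cells, 14 fell in a cluster of C1q macrophages and held Il1a at 641 CPM, while the 176 in the monocyte cluster held 32.1 CPM against 10.5 CPM in 213 naive cells. The classical monocyte markers in this class summed to 7552 CPM in BLM and 12069 CPM in naive, and the C1q markers to 1924 and 1161 CPM. Their part in the difference was not tested.

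In dendritic cells the order was the opposite. cDC1 held 45.0 CPM of Il1a in BLM (22 UMIs) and 121 CPM in naive (81 UMIs), 2.68-fold lower in BLM (log2 -1.42, -2.18 to -0.73). cDC2 held 24.9 CPM (11 UMIs) and 72.5 CPM (37 UMIs), 2.91-fold lower (log2 -1.54, -2.66 to -0.54). The BLM cDC2 level was not separated from that of BLM B cells (log2 0.86 over B cells, -0.36 to 2.02). The migratory dendritic cell markers within cDC1 were at 176 CPM in BLM and 1357 CPM in naive, and the alveolar markers at 3663 and 636 CPM, and their part was not tested. B cells held 18 and 7 Il1a UMIs (13.7 and 3.47 CPM), in 3.08% and 0.89% of cells, and as cells that should hold little Il1a they serve here as its background, so their ratio is not read as a difference in expression.

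Il1rn, the receptor antagonist, was at 1892 CPM in BLM and 1383 CPM in naive neutrophils (log2 0.45, 0.35 to 0.56). Within the first neutrophil cluster it was at 2632 and 2558 CPM, and within the second at 662 and 718 CPM, so the levels within clusters were closer than over all neutrophils. In alveolar macrophages it was at 409 and 320 CPM (log2 0.35) and in C1q macrophages at 655 and 424 CPM (0.63). The differences past 2-fold were in classical monocytes, at 267 CPM (207 UMIs) and 68.4 CPM (70 UMIs), 3.90-fold (log2 1.96, 1.57 to 2.38), and in cDC2, at 664 CPM (293 UMIs) and 231 CPM (118 UMIs), 2.87-fold (log2 1.52, 1.21 to 1.84). In cDC1 it was low, at 26.6 and 22.4 CPM, close to the 19.8 and 20.3 CPM of B cells. In the monocyte cluster alone, without the 14 cells that clustered with C1q macrophages, classical monocytes held 223 and 52.6 CPM. In cDC2, 10 BLM cells fell in a C1q macrophage cluster with 1131 CPM, and the 42 BLM cells of the shared dendritic cluster held 549 CPM against 227 CPM in 72 naive cells.

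The number of Il1rn UMIs per agonist UMI (Il1a and Il1b summed) joins these genes in 1 value. Over all cells it was 0.146 in BLM and 0.146 in naive. In neutrophils, with the most agonist, it was 0.0901 and 0.0698. Naive alveolar macrophages held more antagonist than agonist UMIs, at 1.08 (95% interval 1.02 to 1.15), and BLM alveolar macrophages held 0.177 (0.169 to 0.185). That log2 change of -2.62 (-2.73 to -2.51, by normal approximation) was between -2.65 and -2.53 under the 6 other settings tried. The ratio was higher in BLM in classical monocytes (0.0780 and 0.0420), cDC2 (0.0991 and 0.0429, log2 change 1.21, 0.89 to 1.53) and cDC1 (0.0168 and 0.00717, log2 change 1.23, 0.15 to 2.31, on 13 and 15 Il1rn UMIs). Il1rn in cDC1 was close to the B cell level in both libraries, so the cDC1 ratio is not read as a difference in the antagonist. In C1q macrophages it was 0.286 and 0.203, a log2 change of 0.50 that became -0.25 with clusters as classes, and among those with few Spp1 genes it was 0.214 and 0.205 (log2 change 0.06, -0.20 to 0.32). It was 0.0504 and 0.0591 in nonclassical monocytes, with a log2 change of -0.23 that ran from -0.54 to 0.17 over the other settings. B cells (0.121 and 0.217, log2 change -0.84) and T cells (0.176 and 0.291, -0.73) were lower in BLM, at the levels given above as background. Il1b and Il1rn were found together in 83.4% of BLM and 53.1% of naive alveolar macrophages. Of those with an Il1b UMI, 91.2% in BLM and 89.3% in naive also had an Il1rn UMI.

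**Figure D4:**
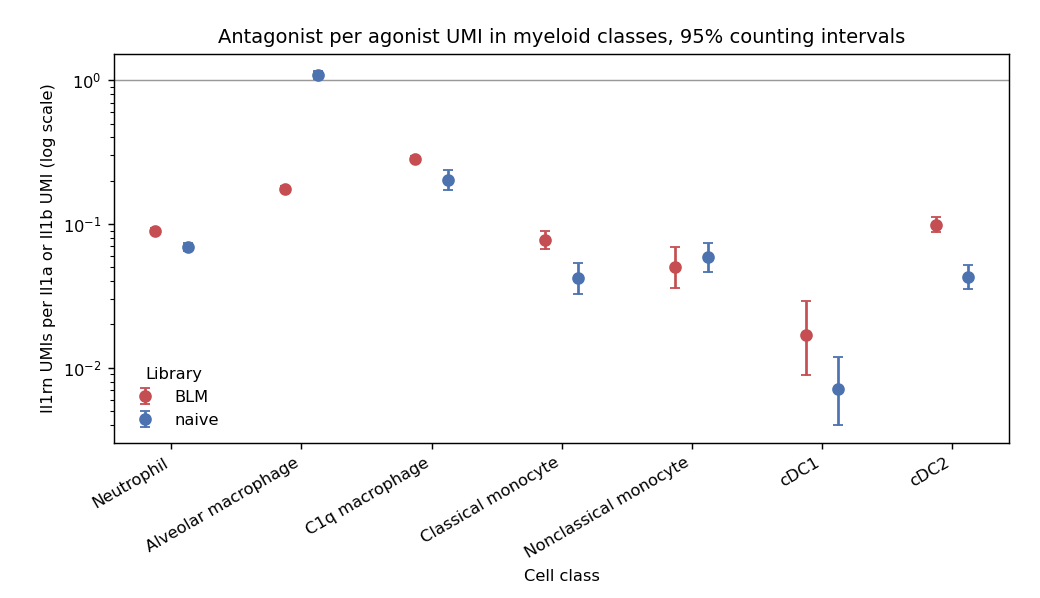
Il1rn UMIs per UMI of Il1a plus Il1b in each library (log10 axis), for the 7 myeloid classes, with exact 95% intervals. Naive alveolar macrophages were at 1.08 and BLM alveolar macrophages at 0.177, while the value over all cells was 0.146 in both libraries.

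Il1r1, the signalling receptor chain, was rare in CD45+ cells, with 232 UMIs in BLM and 128 in naive over all cells. Stromal or endothelial cells held it at 200 CPM (57 UMIs) in BLM and 94.9 CPM (10 UMIs) in naive, with 37 and 19 cells. T cells held 37.4 and 32.4 CPM (log2 0.21, -0.29 to 0.71). Within them, γδ T cells (57 BLM, 53 naive) held 40 and 24 UMIs, at 255 and 153 CPM, in 35.1% and 24.5% of cells, and the interval of their log2 ratio took in 0 (0.73, -0.03 to 1.53). CD8 T cells held 4.07 and 8.84 CPM. Neutrophils, the main holders of the ligand Il1b, had 2 Il1r1 UMIs in BLM and 0 in naive, and NK cells had none in 123 and 251 cells, which allows shares of cells with a UMI of up to 2.44% and 1.20%. Outside lymphocytes, Il1r1 was at 5.73 and 3.02 CPM in alveolar macrophages and at 9.07 CPM (4 UMIs) and 27.4 CPM (14 UMIs) in cDC2.

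Il1rap, the accessory chain, had another distribution. It was at 130 CPM in BLM neutrophils (183 UMIs) and 61.3 CPM in naive neutrophils (45 UMIs), 2.12-fold higher (log2 1.08, 0.61 to 1.59), in 14.3% and 8.53% of cells. Alveolar macrophages held 14.5 and 16.2 CPM. Both chains were found together in 18 BLM and 5 naive cells of all classes, and in γδ T cells in 1 BLM and 0 naive cells. At these depths a chain without a UMI cannot be called absent from a cell.

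Il1r2, the decoy receptor, was mostly in neutrophils, which held 75.2% of its UMIs in BLM and 68.2% in naive. The level was 5723 CPM in BLM and 4528 CPM in naive neutrophils (log2 0.34, 0.28 to 0.40), with a UMI in 96.0% and 96.9% of cells. The next class was cDC2, at 1709 CPM in BLM (754 UMIs) and 745 CPM in naive (380 UMIs), a log2 ratio of 1.20 (1.02 to 1.38). Per UMI of S100a8 and S100a9, Il1r2 was at 0.211 and 0.161 in neutrophils, 0.646 and 0.273 in B cells, 0.226 and 0.268 in alveolar macrophages, 15.7 and 7.31 in cDC2 and 4.10 and 2.44 in cDC1. The part of free RNA in these levels was not tested. cDC1 held 244 and 240 CPM, and classical monocytes 146 and 165 CPM. Foxp3 T cells held 176 CPM in BLM (64 UMIs, 85 cells) and 71.7 CPM in naive (7 UMIs, 23 cells, too few to compare), against 56.5 and 32.9 CPM in all T cells and 64.0 and 33.7 CPM in B cells. S100a8 and S100a9 were at 332 CPM in BLM Foxp3 T cells and 99 CPM in BLM B cells. Il1r2 per UMI of that pair was 0.529 in Foxp3 T cells and 0.646 in B cells in BLM, and 1 and 0.273 in naive. The naive Foxp3 T cell value rests on 7 UMIs of the pair. A UMI of Il1r2 was in 30 of 85 BLM Foxp3 T cells and 66 of 585 BLM B cells. The part of neutrophil RNA in the Foxp3 T cell level was not tested.

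Among these CD45+ cells Il18 was mostly in alveolar macrophages, which held 69.4% of its UMIs in BLM and 90.5% in naive. Only 3 BLM and 0 naive cells were gated as epithelial, so levels in lung epithelium are not given. The alveolar macrophages are described first. Their level was 349 CPM in BLM (1825 UMIs, interval 333 to 365) and 565 CPM in naive (3930 UMIs, 547 to 583). The intervals did not overlap, and the log2 ratio of -0.70 (-0.78 to -0.62) did not reach 2-fold, except with clusters as classes (-1.03). A UMI was in 86.8% and 95.7% of cells although the BLM cells were deeper, and the median cell held 3.08 and 5.35 Il18 UMIs per 10000. Il1b and Il18 thus differed in opposite directions in these cells, and both were found together in 80.0% of BLM and 58.0% of naive cells. Of the cells with an Il1b UMI, 87.5% in BLM and 97.5% in naive also had an Il18 UMI. In cDC2 Il18 was at 13.6 CPM (6 UMIs) and 64.7 CPM (33 UMIs), 4.75-fold lower in BLM (log2 -2.25, -3.79 to -0.98), and in classical monocytes at 20.6 CPM (16 UMIs) and 57.6 CPM (59 UMIs) (log2 -1.48, -2.38 to -0.67). C1q macrophages held 47.2 and 63.0 CPM, with overlapping intervals (log2 -0.42), but the log2 ratio was -1.96 with clusters as classes. Of the BLM C1q macrophages, 77 fell in an alveolar macrophage cluster and held Il18 at 97.2 CPM. The 267 in the main C1q cluster held 33.6 CPM, against 42.4 CPM in 29 naive cells there. B cells, with 17.5 and 17.9 CPM, give the background, and the intervals of BLM cDC2 and BLM classical monocytes overlapped it.

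Il18r1 and Il18rap, the IL-18 receptor chains, were highest in NK cells among the compared classes. Il18r1 was at 281 CPM in BLM and 225 CPM in naive NK cells (log2 0.32, -0.12 to 0.75), and Il18rap at 402 and 367 CPM (0.13, -0.23 to 0.47). Both intervals took in 0. Both chains were found together in 22 of 123 BLM NK cells (17.9%) and 47 of 251 naive NK cells (18.7%). In T cells Il18r1 was at 149 and 132 CPM (log2 0.18) and Il18rap at 52.0 and 38.2 CPM (0.45), with both in 4.88% and 3.72% of cells. γδ T cells held the most Il18r1 of the gated T cells, at 350 and 472 CPM in 56.1% and 66.0% of cells. CD4 T cells held 149 and 90.3 CPM and CD8 T cells 99 and 60.4 CPM, with log2 ratios of 0.73 and 0.71. Il18rap in CD8 T cells was at 46.1 CPM (34 UMIs) and 20.6 CPM (14 UMIs), a log2 ratio of 1.16 (0.22 to 2.17).

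Neutrophils held Il18rap without a like level of its partner, at 124 CPM in BLM (175 UMIs) and 98.1 CPM in naive (72 UMIs), against 10.7 and 12.3 CPM of Il18r1. ILC2 held Il18rap at 123 CPM (16 UMIs, 29 cells) and 65.8 CPM (11 UMIs, 71 cells) and Il18r1 at 7.70 and 17.9 CPM. In alveolar macrophages Il18r1 was called lower in BLM on 8 and 26 UMIs (1.53 and 3.74 CPM, log2 -1.29, -2.64 to -0.10). That level was below the 5.46 CPM of naive B cells, and the ratio was -0.72 without likely doublets and -0.99 without cycling cells.

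Il18bp, the soluble inhibitor of interleukin-18, had 185 UMIs in BLM and 67 in naive over all cells. C1q macrophages held 79 UMIs in BLM (17.7 CPM, in 52 cells, 12.5%) and 1 UMI in naive (2.10 CPM, in 84 cells). The log2 ratio was 3.07 with a counting interval of 0.55 to 8.40. The BLM level was about the same in the 335 cells with Spp1 genes (17.3 CPM) and the 80 with few (21.3 CPM, 10 UMIs). These macrophages held 42.7% of the BLM UMIs of Il18bp. Neutrophils held 17 and 16.4 CPM and alveolar macrophages 6.11 and 3.74 CPM (log2 0.71, -0.08 to 1.52).

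**Figure D5:**
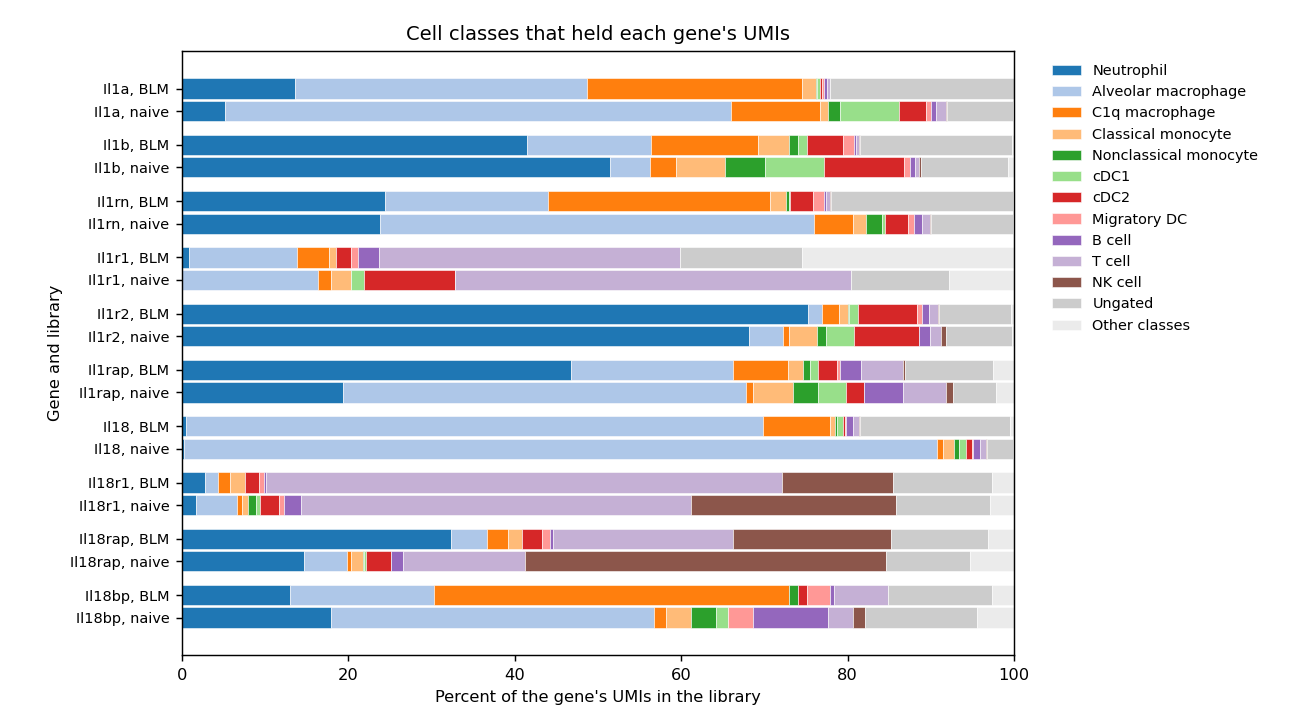
Share of each gene's UMIs held by each cell class in the BLM and naive libraries, as stacked percentages of all UMIs of the gene in that library. Alveolar macrophages held 60.8% of Il1a and 52.2% of Il1rn UMIs in naive, and 35.1% and 19.6% in BLM.

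The classes that held the RNA thus differed between the libraries, by level and by number of cells together. Of Il1a UMIs, alveolar macrophages held 35.1% in BLM and 60.8% in naive, C1q macrophages 25.9% and 10.6%, and neutrophils 13.6% and 5.18%. Of Il1b UMIs, neutrophils held 41.5% and 51.4%, and alveolar macrophages 14.9% and 4.85%. C1q macrophages held 26.8% of Il1rn in BLM and 4.73% in naive. Cells in no gate held 22% of Il1a and 18.2% of Il1b in BLM, against 8.0% and 10.5% in naive, and 255 of the 637 BLM cells in no gate scored best for alveolar or C1q macrophages, against 22 of 318 naive cells.

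The genes that process and release these cytokines were described from a list of 8 (Nlrp3, Nlrc4, Aim2, Pycard, Casp1, Casp4, Gsdmd, Ninj1). In it, 9 of 73 ranked pairs (12.3%) were past 2-fold, 3 higher and 6 lower in BLM. That share lies within the range of all genes in the 10 classes, 6.14% in B cells to 23.4% in C1q macrophages. In neutrophils none of 7 was past 2-fold, and Nlrp3, the sensor that assembles the inflammasome, was at 2277 and 1809 CPM. In cDC1, 3 of 6 were lower in BLM, where 14.1% of all genes were past 2-fold in either direction and 526 of 5646 were lower. The migratory dendritic cell and alveolar markers within cDC1 differed between the libraries, as given above, and their part was not tested. Among these cDC1 genes were the following. Nlrp3 was at 162 and 402 CPM (log2 -1.31, -1.69 to -0.94), Casp1, which cuts the precursors, at 10.2 and 40.3 CPM (5 and 27 UMIs, log2 -1.98, -3.71 to -0.58), and Casp4, which senses lipopolysaccharide in the cytosol, at 14.3 and 35.8 CPM (7 and 24 UMIs, log2 -1.32). Casp4 was also lower in cDC2, at 45.3 and 135 CPM (log2 -1.58), and in C1q macrophages, at 32.7 and 166 CPM (log2 -2.34, -2.75 to -1.93). Nlrc4 was lower in C1q macrophages on 83 and 19 UMIs (18.6 and 39.9 CPM, log2 -1.10). Casp4 and Nlrc4 were 2 of 8 ranked genes there (25%), near the 23.4% of all genes, and that count is not read as a result. In these C1q macrophages classical monocyte markers were at 1177 CPM in BLM and 2794 CPM in naive, and cDC2 markers at 356 and 1679 CPM, and their part was not tested. Ninj1, which ruptures the membrane of dying cells, was higher in alveolar macrophages at 18.3 and 6.32 CPM (log2 1.54, 1.01 to 2.09) and in T cells at 28.9 and 9.55 CPM (log2 1.60). Nlrp3 was higher in NK cells on 16 and 12 UMIs (log2 1.60, 0.43 to 2.81). S100a8 and S100a9 summed to 210 CPM in BLM and 144 CPM in naive NK cells. The part of free neutrophil RNA in this Nlrp3 difference was not tested.

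Receptor signalling was described from 9 genes (Myd88, Irak1, Irak2, Irak3, Irak4, Traf6, Tollip, Sigirr, Tirap). Only 2 of 77 ranked pairs (2.60%) were past 2-fold, which is below the share of all genes in each of the 10 classes. Traf6, a ubiquitin ligase downstream of the receptors, was higher in BLM neutrophils on 38 and 8 UMIs (27.0 and 10.9 CPM, log2 1.31, 0.19 to 2.62). Irak3, an inhibitor of the pathway, was lower in BLM T cells on 16 and 27 UMIs (7.12 and 14.3 CPM, log2 -1.01, -2.00 to -0.06).

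The genes whose levels were most alike those of each member were taken by Pearson's r of log2(CPM + 10) over 22 points, the classes with at least 50 cells of each library, among 12087 genes. The points share libraries and markers of myeloid or lymphoid identity, and the values are a description. For Il1b they were Ptafr, the receptor of platelet-activating factor (r = 0.956), Smim3 (0.916) and Nfe2l2 (0.904). For Il1rn they were Txnrd1 (0.925), Slc15a3 (0.905) and Tlr2 (0.902), and for Il1a Clec5a (0.891), Bst1 (0.835) and Tnf (0.832). Il1r2 was most like Il1bos (0.904), the gene on the other strand of Il1b, then Ifitm1 (0.899) and Mapk13 (0.899), and Il1rap was most like the granule gene Ltf (0.918), Cd101 (0.901) and Gm5483 (0.899). Il18 was most like Car4 (0.903), which is itself one of the alveolar markers, Gm47815 (0.900) and Adhfe1 (0.899). Il18r1 was most like Gprin3 (0.951), Sh2d1a (0.950) and Cd247 (0.949), the last of these the ζ chain of the T cell receptor complex. Il18rap was most like D16Ertd472e (0.884), Gramd1a (0.876) and Dab2ip (0.846). For the rarest genes likeness was weaker or rested on few UMIs, with 1500009L16Rik (0.890), Gm43698 (0.886) and Ms4a4d (0.858) for Il1r1, and Inhba (0.746), Slc7a11 (0.742) and Optn (0.734) for Il18bp. Among the 10 genes themselves, the highest were Il18r1 with Il18rap (0.821), Il1b with Il1r2 (0.789), Il1b with Il1rn (0.785) and Il1a with Il1rn (0.750).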

How the data were processed

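Single-cell RNA was measured in 1 BLM and 1 naive library of sorted lung leukocytes. The authors deposited raw UMI counts per cell and gene from the BD Rhapsody WTA pipeline, version 1.8 per the file headers, aligned to GRCm38 with GENCODE vM19 and error-corrected (recursive substitution error correction). Their later quality control in SeqGeq and Seurat is not in these counts. The analysis dates in the headers differed between the libraries.

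Cells with at least 200 genes and at most 15% mitochondrial UMIs were kept. Each cell was given to the marker panel with the highest mean scaled score if it led the next by 0.1 and at least 2 of the panel's markers had a UMI. Cells with lead between 0.1 and 0.15 made up 7.14% of BLM and 4.46% of naive cells. Within T cells, sub-gates used Foxp3, γδ receptor genes (at least 2 UMIs), CD8 and CD4 genes. C1q macrophages were split by 3 or more of 5 Spp1 macrophage genes. Scrublet's automatic threshold marked 0.177% of BLM and 1.55% of naive cells, so it did not work in BLM. Doublets were kept, and leaving out the 3% of cells with the highest score (136 and 118 cells) was an alternative. Counts were summed per class and library and given as CPM. Intervals were exact Poisson for levels, Clopper-Pearson for shares of cells and exact conditional for ratios, all at 95%, and a count of 0 was read as up to 3 counts. Classes with at least 50 cells in both libraries were compared. Cells of 1 library are not replicates, so no p-value is given. Clusters (2000 variable genes without the 10 members, 30 components, 15 neighbours, Leiden resolution 1) were an alternative to the gates. Gene positions are from GENCODE M21 and promoters from RefSeq, both GRCm38. No sample column was left unmapped (0).

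All 10 members are named, together with pathway genes past 2-fold whose interval leaves out 0, and for each member with at least 50 UMIs the 3 genes most alike. Sub-gates, clusters and single-cell values were added for the members. The members and lists were chosen with earlier results of these data known. The ratios with their intervals and the thinning formula were tested on simulated counts, and the other calculations were not. Other limits on cells, classes, scalings and gates were tried as alternatives. Python 3.11.15 with numpy 2.4.6, scipy 1.17.1, pandas 2.3.3, scanpy 1.11.5 and matplotlib 3.10.9 was used.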

Additional observations from a re-analysis of the deposited data

Results flagged for a closer look

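Il1a stood out because its log2 ratio of BLM over naive had opposite signs in different cell classes, with a counting interval that left out 0 in each. It was 2.59 in neutrophils, 1.76 in alveolar macrophages, 3.26 in classical monocytes and 1.98 in B cells, against -1.42 in cDC1 and -1.54 in cDC2. With 1 library per group the difference between classes was not tested over samples. The B cell value rests on 18 and 7 UMIs at the level taken as background, and is not read as a difference in expression. The cDC2 value rests on 11 and 37 UMIs, and the BLM level there was not separated from that of B cells. The classical monocyte value was 1.14 with the wider gate margin, 1.75 with clusters as classes and 2.64 without the highest cell of each library, and in the monocyte cluster alone the levels were 32.1 and 10.5 CPM.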

How the results depend on the processing

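The count of 17 pairs of member and class past 2-fold became 40 with no UMI minimum and 11 without cycling cells. The 12 higher pairs became 21 with no UMI minimum. The 5 lower pairs became 19 with no UMI minimum, 9 with clusters as classes, 8 with a mean over cells of per-cell CPM, 3 with a score margin of 0.2 and 1 without cycling cells. The 11 pathway pairs became 21 with no UMI minimum and 6 without cycling cells. The 4 higher pathway pairs became 8 with a margin of 0.2, and the 7 lower ones became 15 with no UMI minimum, 4 with a margin of 0.2 and 1 without cycling cells. A margin of 0.2 and leaving out cycling cells take cDC1 and cDC2 under 50 cells, so fewer pairs were compared. No ratio past 2-fold changed its direction under any alternative. The gate margin, the number of alveolar markers, cycling cells and the highest cell were chosen as alternatives after seeing the data. No paired analysis was possible because each group had 1 library and the labels give no shared replicate numbers. Depth limits Il1r1, Il18bp and Il1rap, which had at most 391 UMIs in a library.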
